A study of Mus musculus with 18 samples.

Results

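The hippocampus of mice reared for 12 months (12 m, 3 arrays) was compared with that of the young control group (Ctrl, 3 arrays), which makes 6 of the 18 arrays of the series. The arrays were chosen by the group that their labels give, and every probe set on them was used. All mice were male C57BL/6J without a transgene or deletion, and experiments began when the mice were 10 weeks old. The other 4 groups, with 3 arrays each, were IH5D (intermittent hypoxia for 5 days), IH5DR2 (5 days of intermittent hypoxia and then 2 days of normoxia), IH28D (intermittent hypoxia for 28 days) and Ctrl28 (28 days of rearing in normoxia). Intermittent hypoxia was given as repeated cycles of nitrogen and room air in the cage, and neither 12 m nor either control group received it. Total RNA of the dissected hippocampus was hybridised to a 3′-biased Affymetrix mouse array, so that each value is the brightness of a probe set, called its signal. The labels do not say whether the arrays of a group came from separate mice, so the p-values given here measure only how these arrays spread, which may in part be technical. The age at which the 12 m mice were killed is given only as the rearing time.

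The hippocampus holds the granule cells of the dentate gyrus, the pyramidal cells of CA3, CA2 and CA1, and interneurons, astrocytes, oligodendrocytes, microglia and vessels around them. It lies beside the choroid plexus, the epithelium that secretes cerebrospinal fluid, and beside the ciliated ependyma of the ventricle wall. Aging of this tissue is known for falling expression of mitochondrial and synaptic genes, for glial and complement activation and for the loss of newborn neurons, and the comparison was made in the study to set aging beside intermittent hypoxia.

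The arrays held the markers of hippocampus, but some stood apart from the rest of their group. The mean log2 signal of 10 CA1 markers was 8.54, 8.54 and 7.24 on the 12 m arrays 1, 2 and 3, against 8.67 to 8.68 on Ctrl, and that of 15 dentate granule cell markers was 7.32, 7.22 and 5.83 against 6.96 to 7.15. On the same array 12 m 3, the mean of 17 neocortical markers was 8.97, against 8.14 and 8.22 on 12 m 1 and 2, 7.82 to 8.14 on Ctrl and 8.0 to 8.35 on the other groups. Thus 12 m 3 was low in hippocampal fields and high in neocortical and striatal genes. The mean of 25 choroid plexus genes was 4.37, 4.25 and 4.27 on the 12 m arrays, 7.84 and 8.01 on Ctrl 1 and 2 and 5.19 on Ctrl 3. All 12 m arrays lay below all 15 others in choroid plexus genes, of which the lowest was at 5.08. Array 3 was the lowest of the hypoxia groups too, at 5.08 (IH5D), 5.85 (IH5DR2) and 5.16 (IH28D). Arrays 1 and 2 of these groups lay at 5.83 (IH5D 1) to 7.98. In whole tissue, fewer cells of a type and less RNA per cell cannot be told apart, nor can the amount of neighbouring tissue taken at dissection.

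**Figure D1:**
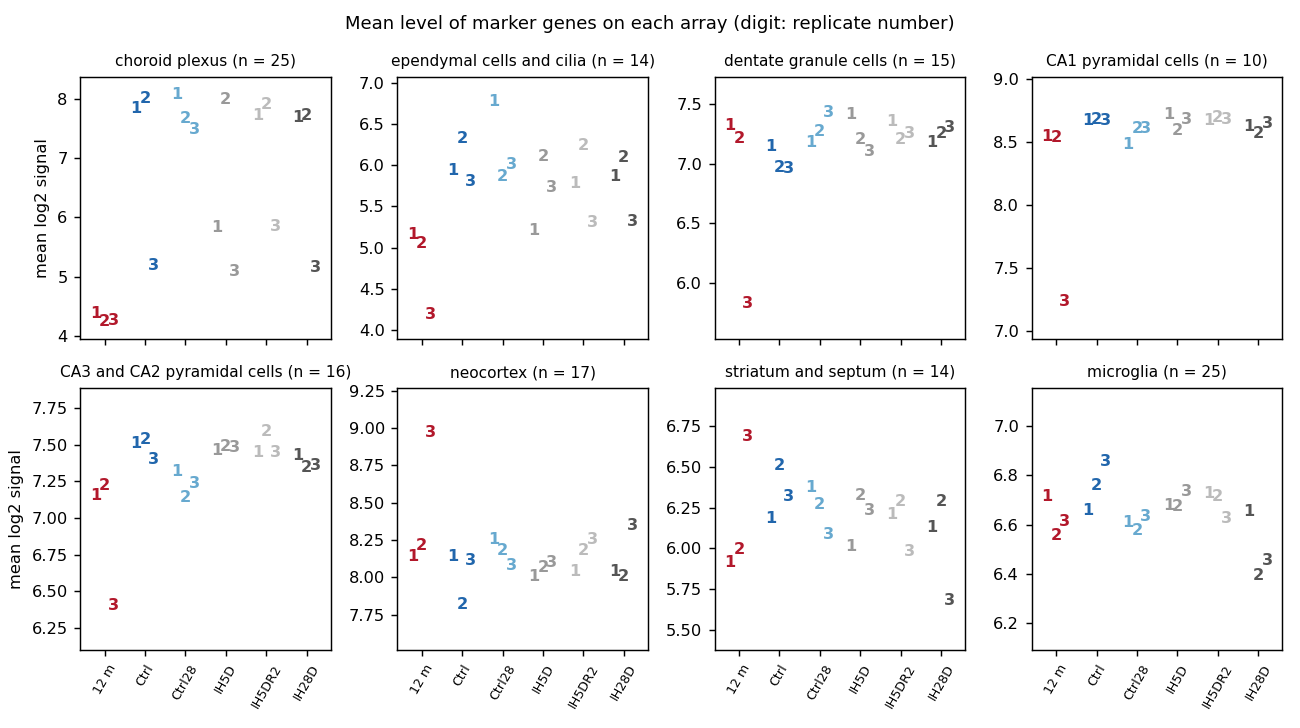
Mean log2 signal of 8 lists of marker genes on each of the 18 arrays, by group, with the digit giving the array's number. The 3 arrays of 12 m lie below every other array for choroid plexus genes (4.25 to 4.37), and 12 m 3 alone lies low for dentate (5.83) and CA1 (7.24) and high for neocortex (8.97).

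The 12 m arrays were also among those with a larger difference between probes near the 3′ and the 5′ end of the Actb and Gapdh transcripts, a sign of RNA or labelling quality. The log2 difference was 0.617, 0.861 and 0.786 on 12 m, 0.339 to 0.469 on Ctrl, 0.328 to 0.535 on the hypoxia arrays and 2.39, 0.822 and 0.966 on Ctrl28. The values of 12 m and Ctrl did not overlap, and the part of this difference in the results that follow was not tested beyond a fit with it as a covariate. With that covariate 7282 genes differed, against 6208 without it. Correlations of all signals were 0.879 to 0.886 within 12 m, 0.883 to 0.894 within Ctrl and 0.843 to 0.877 between them. Array medians lay at signals of 18.1 to 24.3, with 48.0% to 54.4% of probe sets on an array above 20.

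Of 11656 genes whose mean signal was above 20, 6208 differed between 12 m and Ctrl at an adjusted p of 0.05 or less (limma, 53.3% of the genes tested). Of these, 2524 rose (21.7%) and 3684 fell (31.6%). These shares of all genes are the ones to set beside the list counts against Ctrl below. The median change of all genes was -0.23 on the log2 scale. When each array was instead centred on its median, 7206 genes passed. Of all genes 16.2% then rose (1890) and 45.6% fell (5316), so that the share of rises among the calls was 26.2% in place of 40.7%. After quantile normalization 20.7% rose and 36.3% fell. The direction of small changes therefore depended on the scaling, while 1329 called genes were higher by at least 1 log2 unit and 421 were lower by as much. With the genes split by signal into 5 equal groups, 13.6% rose and 13.4% fell in the dimmest group, whereas 22.5% rose and 45.5% fell in the brightest. Leaving out any 1 of the 18 arrays gave 4629 genes (without Ctrl 2) to 7051 genes (without Ctrl28 1), and 5736 without 12 m 3, of which 5314 were calls of the same direction as with it.

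**Figure D2:**
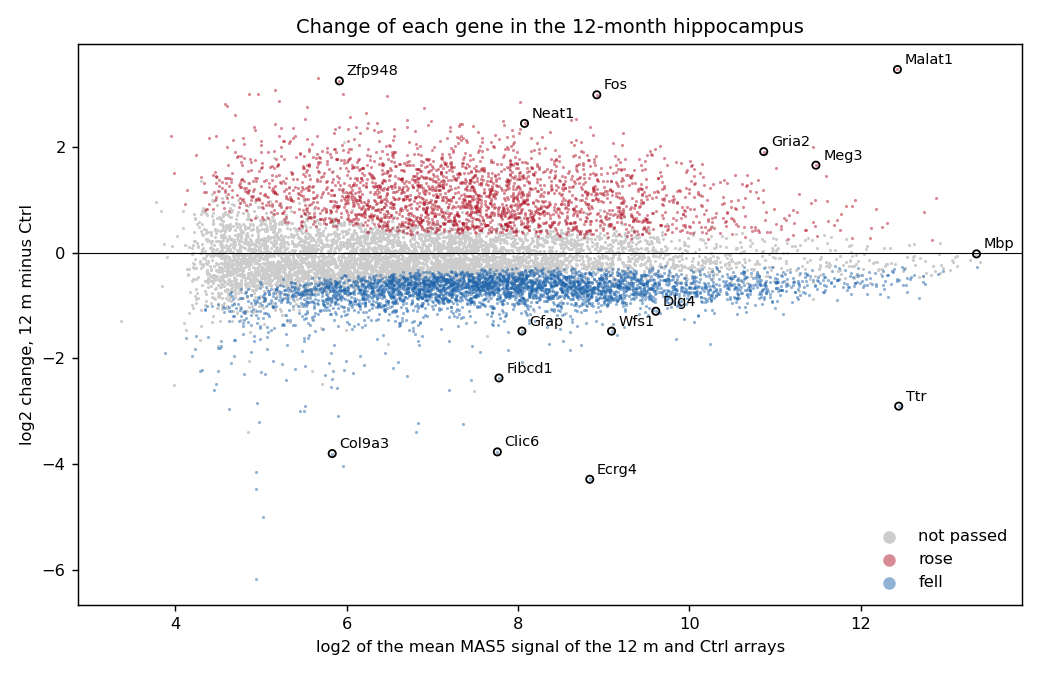
Log2 change, 12 m minus Ctrl, of each gene tested (y axis) against log2 of its mean signal on the 12 m and Ctrl arrays (x axis), with genes that passed the test in colour and 15 genes labelled. Malat1 and Meg3 lie above the bulk at high signal and the choroid plexus genes Ttr, Ecrg4 and Clic6 far below it.

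Fewer genes passed when 12 m was set against the other groups. Against Ctrl28, 1904 genes differed (16.3%), of which 937 rose (8.04%) and 967 fell (8.3%). Leaving out 12 m 3 reduced this to 1145 genes and leaving out 12 m 2 to 1245. Against IH5D the number was 1004 (8.61%), against IH5DR2 1612 (13.8%) and against IH28D 54 (0.463%). The last number fell to 0 without 12 m 3 or IH28D 3, to 1 without IH28D 1 and to 5 without 12 m 2, and was 19 to 90 without any other array except Ctrl28 1, while 1533 genes passed an unadjusted p of 0.05 without 12 m 3 in the same limma fit. In contrast, it was 813 without Ctrl28 1, the array with the largest 3′ to 5′ difference, which enters this comparison only through the estimate of the spread that all arrays share. The number against IH5D ran from 53 (without IH5D 2) to 2852 (without Ctrl28 1) and was 178 without 12 m 3, and that against IH5DR2 ran from 377 (without IH5DR2 1) to 3250 (without Ctrl28 1) and was 726 without 12 m 3. In the same direction against both Ctrl and Ctrl28, 1268 genes passed (10.9%), 596 of them higher and 672 lower at 12 m. The comparisons share the 12 m arrays. Another 24 genes rose against Ctrl and fell against Ctrl28, and 145 fell against Ctrl and rose against Ctrl28. List counts against Ctrl28 below are to be set beside the 8.04% and 8.3% of all genes. Some list counts against Ctrl28 come from fits with another scaling or a covariate. For those fits the share of all genes against Ctrl28 was not counted, so a loss of calls there cannot be assigned to the list.

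The largest rise was in Malat1 among genes whose mean signal reached 100 in the group where it was higher and whose arrays did not overlap between 12 m and Ctrl, the limits used for all genes ranked here. Malat1 is an abundant long noncoding RNA of nuclear speckles. Its signal was 6700, 12890 and 10800 on the 12 m arrays and 1055, 725 and 905 on Ctrl, and the lowest 12 m array lay above the highest array of every other group, 4066 on Ctrl28. The change was 3.47 ± 0.35 (log2 ± SE, 3 arrays against 3, adjusted p = 6.70e-06), and all 7 of its probe sets rose, by 1.29 to 3.47. Zfp948, a zinc finger gene, had signals of 101, 116 and 110 against 9.71, 9.88 and 15.6, a change of 3.25. Prrg1, which encodes a membrane protein, had 98.4, 117 and 109 against 19.7, 23.8 and 5.17, a change of 3.01. No 12 m array of either gene overlapped with Ctrl. The other 7 of the 10 largest rises were those of Fos (2.99), A330076H08Rik (2.96), 5031426D15Rik (2.86), the splicing factor gene Prpf39 (2.73), the zinc finger genes Zfp942 (2.65) and Zfp995 (2.56), and Ttc14 (2.52).

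Of the 10 largest falls within the same limits, 7 were in genes listed for the choroid plexus. Dimmer or overlapping genes fell by more, among them the transporter gene Slc4a5 (-6.18), at 0.267 to 1.83 at 12 m and 90.3, 81.7 and 9.98 on Ctrl. Ecrg4, a secreted peptide precursor of choroid plexus epithelium, had signals of 26.9, 31.5 and 25.1 at 12 m and 1198, 1367 and 96.3 on Ctrl. The 12 m arrays lay below all 3 Ctrl arrays, but Ctrl 3 lay far closer to 12 m than to Ctrl 1 and 2. The change was -4.29 ± 1.10 (adjusted p = 0.00384), and -1.80 (adjusted p = 0.335) against Ctrl 3 alone, with Ctrl 1 and 2 left out. The same held for Clic6, a chloride channel protein (-3.77, and -1.42 with adjusted p = 0.389 without Ctrl 1 and 2), for Folr1, the folate receptor (-3.22, and -0.94 with adjusted p = 0.61), and, outside the 10, for Ttr, the thyroid hormone carrier transthyretin (-2.90, and -0.79 with adjusted p = 0.413), which overlapped with Ctrl. In these fits the lone Ctrl array is assumed to vary like the other groups. Folr1 also lost its call without Ctrl 1 (adjusted p = 0.0641) or Ctrl 2 alone (0.0843). Col9a3, a chain of collagen IX, had 12.8, 1.27 and 16.9 against 124, 145 and 41.4 (-3.80, adjusted p = 0.000916, and -2.67 with 0.0855 without Ctrl 1 and 2). The other 6 were Calml4 (-3.39), Steap1 (-3.08), Sostdc1 (-2.60), Lefty1 (-2.41), Fibcd1 (-2.37) and Lbp (-2.34). Steap1 lost its call without 12 m 1 (adjusted p = 0.103), Ctrl 1 (0.0998) or Ctrl 2 (0.124), and Sostdc1 without 12 m 3 (0.0795), Ctrl 1 (0.0808) or Ctrl 2 (0.0913).

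Of 25 choroid plexus genes 20 fell and 0 rose, with a median of -2.60, beside a median of -0.23 for all genes. The number was 9 without Ctrl 2, 18 without 12 m 3 and 0 with Ctrl 1 and 2 both left out, when the median was -0.74. Against Ctrl28, in which all 3 arrays were high (7.48 to 8.06 in mean log2), 20 fell, with a median of -3.68, and 12 to 18 fell with any 1 array of 12 m or Ctrl28 left out. Of 14 genes of ependyma and cilia 9 fell and 1 rose, with a median of -1.34. Foxj1, the master regulator of motile cilia, had 11.9, 15.2 and 5.98 at 12 m against 63.2, 66.9 and 28.4 (-2.26 ± 0.54, adjusted p = 0.0024). All 3 of its 12 m arrays lay below Ctrl. Without 12 m 3, which had the lowest ependymal mean (4.19 against 5.16 and 5.05), 7 fell, and with Ctrl 1 and 2 both left out 2 did. With the mean choroid plexus level of each array as a covariate, 2 ependymal genes fell. That level was 4.25 to 4.37 on the 12 m arrays and 5.08 or more on all others. The fit, here and below, therefore could not cleanly separate the group from the level, and calls lost in it do not show what a change goes with. In it 15.8% of all genes rose and 16.8% fell against Ctrl. Of 24 genes of meninges, fibroblasts and collagens 7 fell and 1 rose, and 3 fell without 12 m 1 and 1 with this covariate.

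Fibcd1 and Lefty1 fell by amounts that 1 array set. Fibcd1, a marker of CA1 pyramidal cells, had 193, 208 and 5.05 at 12 m against 278, 325 and 308, a change of -2.37 (adjusted p = 0.0269). Without 12 m 3 the change was -0.60 (0.0132), and without Ctrl 2 or Ctrl 3 the adjusted p was 0.0705 or 0.0602. Lefty1, a secreted inhibitor of Nodal signalling, had 138, 132 and 5.15 against 141, 340 and 292, and the change was -2.41 with 12 m 3 and -0.84 (adjusted p = 0.0227) without it. Without Ctrl 2 its adjusted p was 0.0647.

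In all, 30 genes differed at 12 m from each of the 5 other groups in the same direction, 15 higher and 15 lower (30 of 11656, 0.257%). This count was 0 without 12 m 3, IH28D 1 or IH28D 3, 5 without 12 m 2 and 10 to 25 without any other array except 12 m 1 (53), Ctrl28 3 (51) and Ctrl28 1 (246, of which 28 were among the 30). Without 12 m 3 all 30 genes had the same direction against all 5 groups. Rbm26, an RNA-binding protein gene, was at 325, 332 and 353 at 12 m and at 73.1 to 203 on the other 15 arrays. Its change was 2.01 ± 0.18 against Ctrl (adjusted p = 3.51e-06) and 1.02 against IH28D. Cdk5r2, which encodes the p39 activator of the kinase Cdk5, was at 253, 260 and 344 at 12 m and at 395 to 765 on the others (-1.35 against Ctrl). Neither gene had a 12 m array within the range of the other groups.

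Within the limits on signal and overlap given above, the other genes of this set that lay highest against Ctrl were Malat1, the calcium-binding grancalcin gene Gca (2.31), Klhl4 (2.21), the proteoglycan gene Spock3 (2.18), the olfactomedin gene Olfm3 (2.18), Dmxl1, a partner of the vesicular proton pump (2.10), and the scaffold gene Erbin (1.85). Those that lay lowest within these limits were Col9a3, Islr2 (-1.76), Dpp6, an auxiliary subunit of A-type potassium channels (-1.57), Wfs1, an endoplasmic reticulum protein gene and marker of CA1 (-1.48), Fjx1 (-1.43), the ribosomal protein gene copy Rps4l (-1.40), Cdk5r2 and Vapb, a protein of contact sites of the endoplasmic reticulum (-1.25). Wfs1 was at 414, 337 and 159 at 12 m and at 757, 846 and 759 on Ctrl, so that 12 m 3 was again the lowest but the other 2 arrays did not overlap with Ctrl either. Rps4l is a near-copy of another ribosomal protein gene, and its probes may read both. Fjx1 was read by a probe set with a mean signal of 113.5. Another of its probe sets, nearly as bright at 110, changed by -0.50 (adjusted p = 0.0325 in limma with each probe set tested singly).

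**Figure D3:**
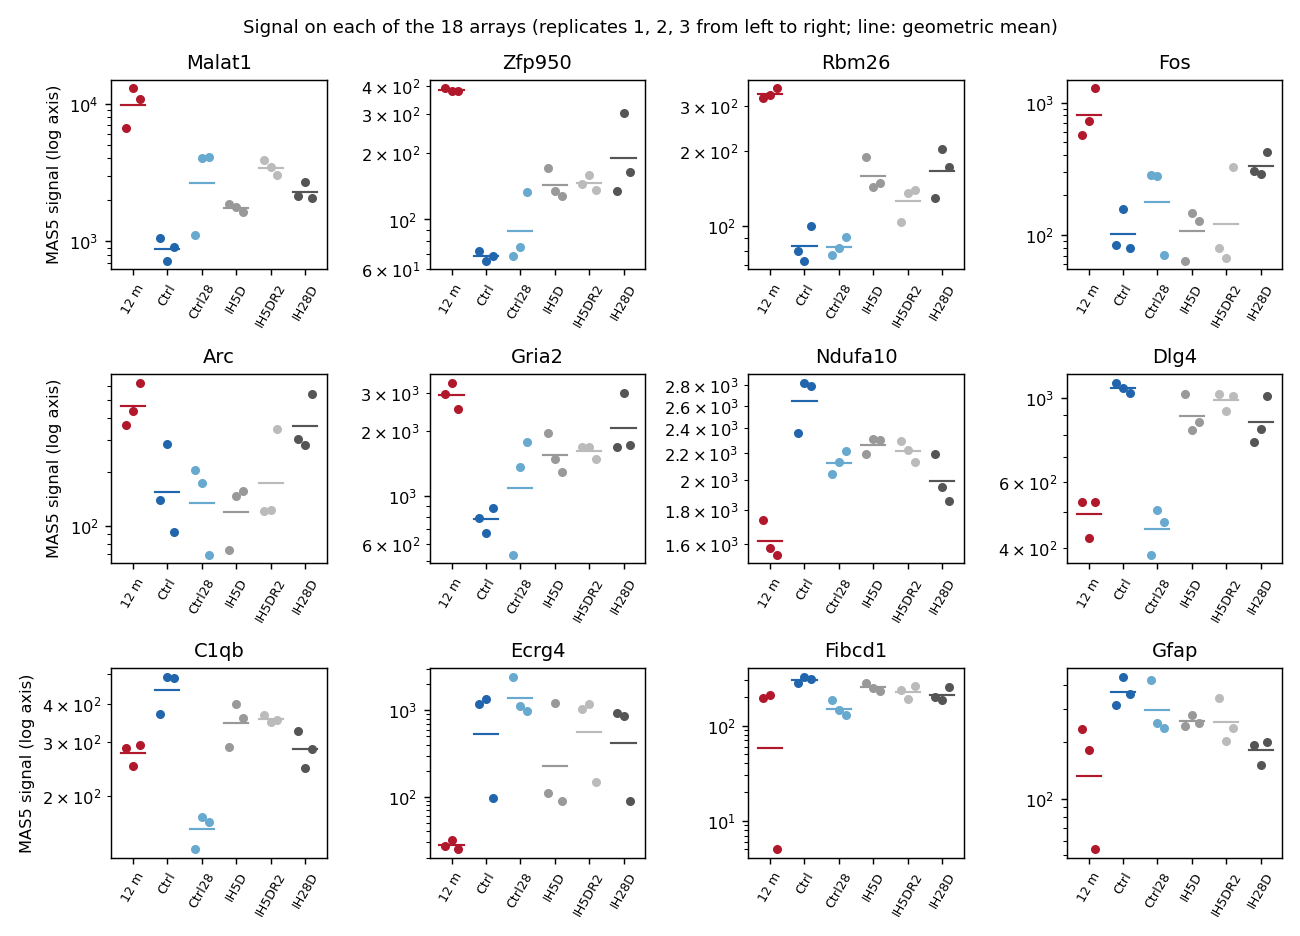
Signal (log axis) of 12 genes on each array of the 6 groups, with the line at the geometric mean of the 3 arrays. Malat1, Zfp950 and Rbm26 are highest at 12 m, Gria2 is higher at 12 m than on both controls, Dlg4 and C1qb are high on Ctrl, and Ecrg4, Fibcd1 and Gfap show the arrays Ctrl 3 and 12 m 3 apart from their groups.

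Most of the long noncoding RNAs listed rose at 12 m. Of 17 long noncoding RNAs 11 rose and 3 fell, with a median of 1.09, and 7 rose against Ctrl28 (0 with the choroid plexus covariate). Neat1, the scaffold of paraspeckles, was at 471, 431 and 453 against 114, 49.97 and 100.1, a change of 2.45 ± 0.31 (adjusted p = 2.38e-05). Meg3, an imprinted RNA, was at 3753, 4475 and 4672 against 1831, 1008 and 1361 (1.65 ± 0.18), and 11 of 11 of its probe sets rose. Snhg11, a neuronal host of small nucleolar RNAs, changed by 2.00 and the imprinted antisense RNA Kcnq1ot1 by 2.02. None of the 4 had a 12 m array within the range of Ctrl, and all 4 rose against Ctrl28 too, by 1.76, 0.76, 1.11 and 0.73. Kcnq1ot1 lost that call without 12 m 1, 2 or 3 or Ctrl28 1 (adjusted p of 0.076 to 0.145).

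Of 259 genes named Zfp, most of which encode zinc finger proteins, 115 rose and 30 fell, with a median of 0.37 against -0.23 for all genes. Against Ctrl28 49 rose and 0 fell (limma, median 0.24; 16 fell at an unadjusted p). With the choroid plexus covariate 11 rose against Ctrl28, and with median centring 17 fell. Zfp950 was at 392, 383 and 382 at 12 m, at 72.1, 65.2 and 68.0 on Ctrl and at 68.6, 74.99 and 134 on Ctrl28. The change was 2.50 ± 0.25 against Ctrl (adjusted p = 6.70e-06) and 2.13 against Ctrl28. With the arrays centred on their medians 96 of the Zfp genes rose and 61 fell, and without Ctrl 2 the falls were 16. The choroid plexus covariate gave 90 rises and 10 falls, and leaving out Ctrl 1 and 2 gave 88 and 11. Many Zfp genes are close copies of each other, so their probes may read more than 1 gene. Of 51 chromatin regulators 25 rose and 8 fell (median 0.53; 21 and 14 with median centring), among them Atrx, a remodeller of heterochromatin, at 1164, 1191 and 1199 against 354, 278 and 355 (1.86), and Tet2, which oxidises methylcytosine (1.38). Hdac5, a class IIa deacetylase, fell by 0.78 against Ctrl and was at 0.08 against Ctrl28 (adjusted p = 0.679).

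Of 83 splicing factors 34 rose (41%) and 21 fell (25.3%), beside 21.7% and 31.6% of all genes, with a median of 0.23. With median centring 28 rose and 28 fell, where 16.2% of all genes rose and 45.6% fell, so that the list shifted together with all genes. The falls were 10 with the choroid plexus covariate and 7 without Ctrl 1 and 2. Prpf4b, a kinase of the spliceosome, was at 440, 458 and 492 against 129, 75.5 and 111 (2.17 ± 0.18, adjusted p = 3.51e-06), and Luc7l3, a U1-associated protein gene, at 1234, 1152 and 1153 against 340, 287 and 304 (1.93). Both genes lay above Ctrl on every 12 m array and rose against Ctrl28 by 1.15 and 1.05. Of 13 genes of microRNA processing 5 rose and 2 fell. Dicer1, the ribonuclease that releases mature microRNAs, was at 190, 194 and 195 against 113, 90.6 and 88.6 (0.996 ± 0.133, adjusted p = 3.16e-05), with 0.38 (0.0606, and 0.0323 without Ctrl28 1) against Ctrl28. Tnrc6a, a partner of Argonaute proteins, changed by 1.26.

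Most genes of complexes I, II and III and of ATP synthase fell against Ctrl. Of 33 subunits of complex I, the NADH dehydrogenase of the respiratory chain, 25 fell and 0 rose, with a median of -0.64 beside -0.23 for all genes. Without Ctrl 2 12 fell, without Ctrl 3 13, and without 12 m 3 16, with medians of -0.75 to -0.56 over all arrays left out in turn. With the choroid plexus level as a covariate 6 fell, and 8 with Ctrl 1 and 2 both left out, which left 1 Ctrl array. Against Ctrl28 8 fell and 0 rose (median -0.53). That number was 1 without 12 m 3, 2 without 12 m 2, 4 without 12 m 1, 3 without Ctrl28 1, and 18 and 16 without Ctrl28 2 and 3. It was 23 with median centring, 4 after quantile normalization, 1 with the 3′ to 5′ covariate and 0 with that of the choroid plexus. For these scalings and covariates the share of all genes against Ctrl28 was not counted. Ndufa10, an accessory subunit, was at 1742, 1578 and 1539 at 12 m, 2358, 2819 and 2785 on Ctrl and 2042, 2133 and 2213 on Ctrl28. The 12 m arrays lay below both controls, with changes of -0.71 ± 0.10 (adjusted p = 5.32e-05) and -0.40 (0.0147, and 0.053 without 12 m 3). Of 13 genes of complexes II and III 10 fell, including Uqcrc1, a core protein of complex III (-0.99 against Ctrl and -0.21 against Ctrl28, adjusted p = 0.298). Of 16 ATP synthase genes 11 fell (5 without Ctrl 2), of 10 genes of complex IV and cytochrome c 3 fell and 1 rose (1 fell without 12 m 2), and of 15 citric acid cycle genes 9 fell and 3 rose (1 rose without Ctrl 2). With the covariate 6 genes of complexes II and III and 3 of ATP synthase fell, and without Ctrl 1 and 2 6 and 5.

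The counts for glycolysis were not the same against the 2 controls, a difference that was not tested. Of 13 genes 11 fell against Ctrl (median -0.60), whereas against Ctrl28 0 fell and 3 rose (limma, median -0.03; 2 fell at an unadjusted p). The rises were 1 without 12 m 1, 12 m 3, Ctrl28 2 or Ctrl28 3. Tpi1, triosephosphate isomerase, was at 2593, 2238 and 2245 at 12 m, 3659, 5014 and 4508 on Ctrl and 2669, 2294 and 2246 on Ctrl28. The 12 m arrays lay below Ctrl and within the range of Ctrl28 or close to it. Pkm, pyruvate kinase, was at 1128, 1181 and 1189 at 12 m, 1756, 1900 and 1644 on Ctrl and 826, 562 and 542 on Ctrl28, so that it fell by 0.60 against Ctrl and was higher by 0.88 than Ctrl28 (adjusted p = 0.000697). Of 25 antioxidant enzymes 16 fell and 0 rose against Ctrl (median -0.55), and 6 fell against Ctrl28 (3 without 12 m 2 and 0 with the choroid plexus covariate). Against Ctrl the covariate left 7 falls of these, and without Ctrl 1 and 2 8 fell, when 7 of the glycolysis genes fell. Gstm1, a glutathione transferase, was at 672, 631 and 537 against 1173, 1325 and 1212 (-1.02) and did not pass against Ctrl28 (0.12, adjusted p = 0.608). Prdx2, a peroxiredoxin, changed by -0.83 against Ctrl.

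Most mitochondrial ribosomal and proteasome genes fell against Ctrl, and most ubiquitin ligase genes rose. Of 73 mitochondrial ribosomal proteins 59 fell and 1 rose, with a median of -0.67, and 21 fell against Ctrl28. The latter number was 9 without 12 m 3, 10 without 12 m 2, 13 without Ctrl28 1, 33 without Ctrl28 3, 47 with median centring, 6 with the 3′ to 5′ covariate and 0 with that of the choroid plexus. Against Ctrl, in the fit with the choroid plexus covariate 26 fell, and without Ctrl 1 and 2 36. Mrps11, of the small subunit, was at 133, 144 and 149 against 273, 358 and 298 (-1.12 ± 0.15), clear of Ctrl, and differed by -0.19 from Ctrl28 (adjusted p = 0.386). Of 18 genes of mitochondrial import 14 fell and 1 rose, and 9 fell without 12 m 2. Of 43 cytosolic ribosomal proteins 22 fell and 0 rose (12 fell without Ctrl 2), among them Rpl8 at 1797, 1678 and 1775 against 2595, 3543 and 3265 (-0.83 ± 0.13). Of 43 translation initiation factors 13 rose (30.2%) and 20 fell (46.5%), beside 21.7% and 31.6% of all genes. With the same covariate 7 import genes and 8 cytosolic ribosomal proteins fell, and without Ctrl 1 and 2 7 and 14, whereas with the arrays centred on their medians 34 cytosolic ribosomal proteins did.

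Of 45 proteasome subunits 27 fell and 2 rose, with a median of -0.45, and 14 fell against Ctrl28. The latter number was 6 without 12 m 3, 7 without 12 m 2, 23 with median centring, 8 with the 3′ to 5′ covariate and 1 with that of the choroid plexus. Against Ctrl, without Ctrl 1 and 2, and also with the choroid plexus covariate, 15 fell. Psmb2, a subunit of the 20S core, was at 429, 416 and 390.3 against 669, 804 and 684 (-0.80 ± 0.11) and fell by 0.43 against Ctrl28 (adjusted p = 0.0161, and 0.0564 without 12 m 3). Psmc6, an ATPase of the 19S cap, was an exception at 531, 483 and 473 against 241, 201 and 186 (1.25). Of 34 genes of HECT and RING ubiquitin ligases, including ligase scaffolds such as Cul3, 23 rose and 2 fell, with a median of 0.91. Leaving out any 1 array of 12 m or Ctrl gave 20 to 24 rises. Without Ctrl 1 and 2 23 rose, and with the choroid plexus covariate 21. Against Ctrl28 5 rose and 0 fell, and the rises were 1 without 12 m 1 or 12 m 3, 0 without 12 m 2, 2 without Ctrl28 1, 9 without Ctrl28 3 and 0 with the choroid plexus covariate. Cul3, the scaffold of BTB-type ligases, was at 470, 428 and 377 against 176, 129 and 153 (1.48), but its signals on Ctrl28 were 180, 377 and 457, which the 12 m values overlapped. Rnf6, a RING ligase, was at 318, 297 and 302 against 133, 90.8 and 101 (1.51 ± 0.22) and rose against Ctrl28 by 0.76, a call lost without 12 m 1, 2 or 3 or Ctrl28 1 (adjusted p of 0.0598 to 0.0965). Of 30 genes of lysosome and autophagy 21 fell and 2 rose (10 fell with the covariate and 9 without Ctrl 1 and 2), and of 25 chaperones 8 rose and 4 fell, with 5 rises without 12 m 1 and 5 rises and 10 falls after median centring.

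**Figure D4:**
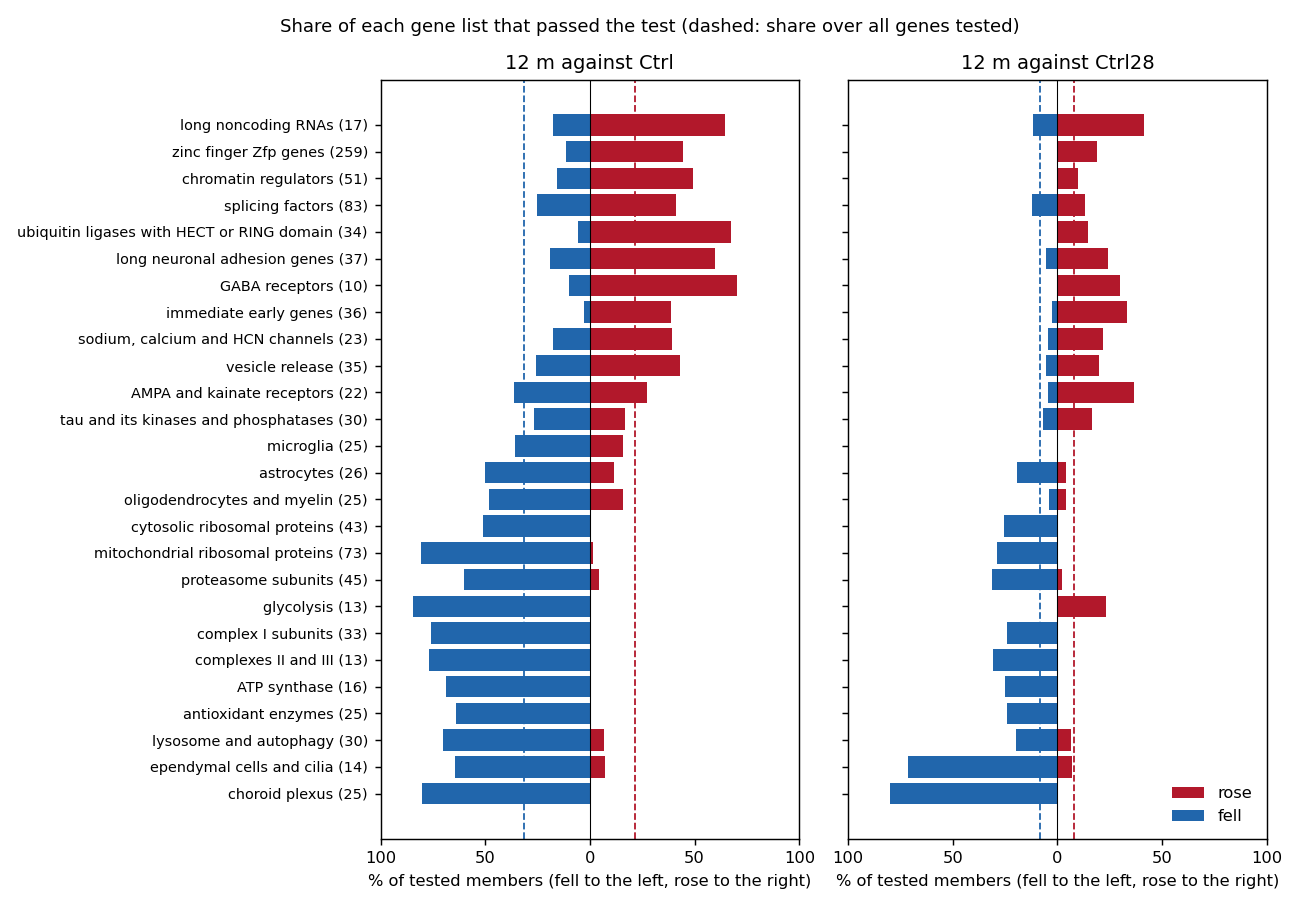
Percent of the tested members of 26 gene lists that rose or fell at 12 m, against Ctrl and against Ctrl28, with dashed lines at the percent of all genes. Glycolysis (11 of 13), mitochondrial ribosomal proteins (59 of 73) and choroid plexus (20 of 25) reach furthest to the falling side against Ctrl, and GABA receptors (7 of 10) and ubiquitin ligases (23 of 34) to the rising side, while against Ctrl28 choroid plexus (20 of 25) and ependyma (10 of 14, and 4 without 12 m 3 or Ctrl28 1) have long falling bars.

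The direction of change went with the span of the gene, the distance from its annotated start to its end in the RefSeq annotation of GRCm38.p6, which was known for 11634 of the genes tested. Of 10 equal groups by span, that with the shortest genes, up to 4.59 kb, had a median change of -0.58 against Ctrl, with 4.9% rising and 54.2% falling. The group with the longest, from 140.1 kb, had a median of 0.26, with 39.7% rising and 13.8% falling. The medians against Ctrl climbed from each group to the next. Against Ctrl28 the medians ran from -0.18 to 0.08, and against IH28D from -0.13 to 0.02. The median signal of the 10 groups lay between 119 and 169. Whether a gene list moved beyond what the span of its genes goes with was not tested.

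**Figure D5:**
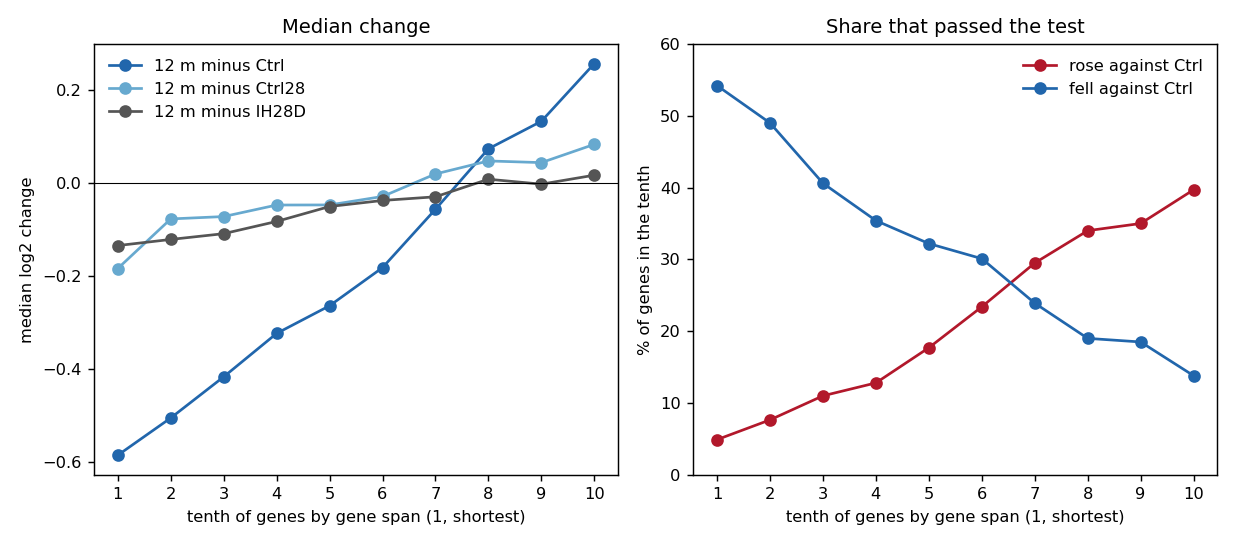
Median log2 change at 12 m against Ctrl, Ctrl28 and IH28D (left) and percent of genes that rose or fell against Ctrl (right), in 10 equal groups of the genes by span. The median against Ctrl climbs from -0.58 in the group of shortest genes to 0.26 in the longest, and that against Ctrl28 from -0.18 to 0.08.

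Immediate early genes are switched on in neurons within minutes of activity, through the transcription factors CREB and SRF at their promoters, and fade again soon after. The promoters of 4 of these genes are shown because they hold the letters that CREB binds and because their genes were measured here. Each run is the 250 bases before the RefSeq start on GRCm38.p6, 5′ to 3′ on the strand of the gene, with capitals marking TGACGTCA, the full cAMP response element, or in Fos TGACG, its shorter form, found on either strand. For Fos the window is chr12:85473640-85473889 on the plus strand, for Dusp1 chr17:26508473-26508722 on the minus strand, for Btg2 chr1:134079156-134079405 on the minus strand and for Plk2 chr13:110394794-110395043 on the plus strand.
Fos: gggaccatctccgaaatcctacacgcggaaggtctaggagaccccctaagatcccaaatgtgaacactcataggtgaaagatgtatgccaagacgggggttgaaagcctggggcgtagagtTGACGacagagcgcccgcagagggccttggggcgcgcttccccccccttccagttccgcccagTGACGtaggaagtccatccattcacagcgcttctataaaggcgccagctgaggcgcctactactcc
Dusp1: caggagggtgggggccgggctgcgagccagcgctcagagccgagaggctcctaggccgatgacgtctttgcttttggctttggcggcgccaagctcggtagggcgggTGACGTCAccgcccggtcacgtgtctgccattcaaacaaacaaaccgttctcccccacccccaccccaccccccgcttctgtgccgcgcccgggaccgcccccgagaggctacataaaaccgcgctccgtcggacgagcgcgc
Btg2: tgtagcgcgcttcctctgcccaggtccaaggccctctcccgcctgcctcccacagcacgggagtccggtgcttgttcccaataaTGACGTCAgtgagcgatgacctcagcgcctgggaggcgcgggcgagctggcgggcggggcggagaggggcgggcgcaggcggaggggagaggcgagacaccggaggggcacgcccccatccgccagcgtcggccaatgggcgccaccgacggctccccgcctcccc
Plk2: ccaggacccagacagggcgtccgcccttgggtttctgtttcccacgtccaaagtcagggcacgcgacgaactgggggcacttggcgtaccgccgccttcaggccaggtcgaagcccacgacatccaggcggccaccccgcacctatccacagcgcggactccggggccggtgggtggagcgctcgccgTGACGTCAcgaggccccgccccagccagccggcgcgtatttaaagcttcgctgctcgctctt
The short form stood 129 and 66 bases before the start of Fos, and the full element stood 143 bases before that of Dusp1, 166 before that of Btg2 and 62 before that of Plk2. In windows that also held the 50 bases after the start, genes were counted as holding an element if any of their promoters did. The full element was held by 2.03% of 27025 genes, by 3.56% of the 9472 matched genes tested, by 3.8% of those that rose and by 3.29% of those that fell. It was held by 4 of 30 immediate early genes (13.3%). The shorter form, which every full element holds, was held by 20 of 30 (66.7%). Its share was 35.8% in tested genes, 38.6% in those that rose, 35.6% in those that fell and 23% in all genes with a promoter. The letters alone do not show a bound site.

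Of 36 immediate early genes 14 rose and 1 fell against Ctrl, with a median of 0.38 beside -0.23 for all genes. Against Ctrl28 12 rose and 1 fell (median 0.61), beside 8.04% and 8.3% of all genes. Against IH5D 13 rose, against IH5DR2 11 and against IH28D 0 by the same limma test, where 9 rose at an unadjusted p. Of all genes, 8.61%, 13.8% and 0.463% rose or fell against IH5D, IH5DR2 and IH28D, and the rises alone were not counted. Without 12 m 3 the median against Ctrl was 0.18, and 6 rose against Ctrl28 (9 without Ctrl28 3). Against IH5D 4 rose without 12 m 3 (4 to 7 without any other array of the 2 groups but 12 m 1, and 11 without that), and against IH5DR2 5 did (4 without IH5DR2 1, 5 without IH5DR2 2). The choroid plexus covariate left 3 rises against Ctrl28. Without Ctrl 1 and 2 together 9 rose against Ctrl, and with that covariate 8. Fos, part of the AP-1 factor, was at 569, 732 and 1281 at 12 m, 84.6, 158 and 80.5 on Ctrl and 284, 278 and 70.2 on Ctrl28. All 3 arrays of 12 m lay above both controls, with changes of 2.99 ± 0.56 (adjusted p = 0.000382) and 2.20 (0.0138, and 0.0614 without 12 m 3). Arc, which traffics AMPA receptors, was at 366, 437 and 626 against 140.0, 286 and 92.8 (1.58 ± 0.48, adjusted p = 0.0104), and its adjusted p without Ctrl 3 was 0.0622. Nr4a1, a nuclear receptor, was at 619, 689 and 1006 against 354, 358 and 358 (1.08), and Junb at 129, 138 and 162 against 82.7, 102 and 63.2 (0.82). Both also rose against Ctrl28, by 1.38 and 1.81.

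In most of these genes 12 m 3 was the highest array. Homer1, which has a short activity-induced form, was at 748, 731 and 1146 against 319, 205 and 214 (1.83). Egr1, a zinc finger factor of memory storage, was at 2420, 2443 and 3734 against 1546, 1850 and 1723 (0.72, adjusted p = 0.015), and without 12 m 3 at 0.51 (0.0823). Dusp1, a phosphatase of MAP kinases, was at 385, 524 and 867 against 266, 330.4 and 273 (0.96, adjusted p = 0.0135), and at 0.64 (0.0829) without 12 m 3. Btg2, an antiproliferative gene, was at 138, 156 and 284 against 87.7, 103 and 91.9 (0.96, 0.00325). Plk2, a kinase that lowers synaptic strength, was at 1015, 1057 and 972 against 1064, 917 and 1017, and the groups overlapped (0.02, adjusted p = 0.89), although its promoter holds the same element. Npas4, a neuron-specific factor, was at 46.5, 85.3 and 180 against 15.3, 25.4 and 23.4 without overlap, but did not pass (2.10 ± 1.03, adjusted p = 0.0918). Bdnf, the growth factor, did not pass either by the probe set used (0.67, adjusted p = 0.0621, and 0.0420 without 12 m 3). Another of its probe sets, dimmer at a mean signal of 99.0, rose by 1.03 (adjusted p = 0.00387 in limma with each probe set tested singly). The labels give no time of day or handling before death for the 12 m mice.

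Subunits of ionotropic receptors differed from each other. AMPA receptors carry the fast excitatory current, and of 22 genes of AMPA and kainate receptors and their partners 6 rose and 8 fell against Ctrl (5 and 4 without Ctrl 1 and 2), and 8 rose and 1 fell against Ctrl28 (0 rose with the choroid plexus covariate). Gria2, the subunit that keeps the channel impermeable to calcium, was at 2975, 3347 and 2536 at 12 m, 794, 675 and 883 on Ctrl and 534, 1356 and 1770 on Ctrl28. No array overlapped, and the changes were 1.91 ± 0.31 (adjusted p = 0.000147) and 1.43 (0.00611). Gria3 (1.86) and Gria4 (1.36) rose as well, against Ctrl28 by 1.52 and 1.36. Gria1 was at 1719, 1722 and 615 against 1593, 1809 and 1892, so that 12 m 3 alone was low, and it did not pass (-0.53, adjusted p = 0.108, and -0.03 without 12 m 3). It passed without 12 m 1 (-0.77, adjusted p = 0.0336) or 12 m 2 (-0.78, 0.0347), where 12 m 3 weighed more. Cnih3, an AMPA receptor auxiliary protein, fell by 0.90 against Ctrl.

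Of 11 genes of NMDA and metabotropic receptors 4 rose and 1 fell. Grm5, the metabotropic receptor mGluR5, was at 1027, 1202 and 607 against 277, 224 and 308 (1.76). Grin2b, an NMDA receptor subunit, was at 481, 509 and 363 against 392, 268 and 241 with overlap. By this probe set it did not pass (0.60, adjusted p = 0.108, and 0.00729 without Ctrl28 1). Another of its probe sets, at a mean signal of 369, rose by 0.93 (adjusted p = 0.000319 in limma with each probe set tested singly). Of 10 GABA receptor genes, which mediate inhibition, 7 rose and 1 fell, with a median of 0.91, and 3 rose against Ctrl28. Gabrb2 was at 1154, 1191 and 1542 at 12 m, 347, 264 and 354 on Ctrl and 273, 464 and 563 on Ctrl28, and Gabra2 was at 293, 287 and 181, 64.0, 60.8 and 99.4, and 55.9, 74.8 and 106. Both rose against both controls, Gabrb2 by 2.01 and 1.63 and Gabra2 by 1.76 and 1.70.

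Of 17 postsynaptic scaffolds 4 rose (23.5%) and 5 fell (29.4%), close to the 21.7% and 31.6% of all genes. Dlg4, which encodes the scaffold PSD-95, was at 531, 427 and 531 at 12 m and 1098, 1065 and 1029 on Ctrl, a fall of -1.11 ± 0.14 (adjusted p = 1.97e-05). Its signals on Ctrl28 were 385, 506 and 469.5, which overlapped with 12 m (0.13, adjusted p = 0.541). Pick1, which binds AMPA receptors, fell by 0.53 (adjusted p = 0.0198, and 0.131 without 12 m 1 and 0.0689 without Ctrl 2). Of 35 genes of vesicle release 15 rose (42.9%) and 9 fell (25.7%). Snap25, of the fusion machinery, rose by 0.77, whereas the vesicle protein synaptophysin, Syp, fell by 1.02 (adjusted p = 0.0149, and 0.0541 without Ctrl 2). Slc17a7, the vesicular glutamate transporter, was at 183, 187 and 188 at 12 m, 318, 334 and 305 on Ctrl and 173, 106 and 104 on Ctrl28. It was lower than on Ctrl (-0.78, adjusted p = 0.00152) and higher than on Ctrl28 (0.58, 0.0295, and 0.0578 to 0.0973 without any 1 array of the 2 groups other than Ctrl28 1).

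Of 37 long genes of neuronal adhesion 22 rose and 7 fell, with a median of 0.86, and 9 rose and 2 fell against Ctrl28 (6 and 0 without 12 m 3, and 0 rose with the choroid plexus covariate). Nlgn1, the excitatory synapse protein neuroligin 1, was at 378, 381 and 346 against 143, 93.8 and 112 (1.68), and the receptor phosphatase gene Ptprd changed by 1.67. Both rose against Ctrl28 by 1.14 and 1.04. Of 57 potassium channel genes 13 rose (22.8%) and 12 fell (21.1%), beside 21.7% and 31.6% of all genes. The falls were 6 without Ctrl 2, and 12 rose and 19 fell with median centring. Kcnt2, a sodium-activated channel, was at 183, 189 and 254 against 32.7, 37.9 and 47.2 (2.41). Of 23 sodium, calcium and HCN channel genes 9 rose and 4 fell, and 7 rose and 9 fell with median centring. Scn1a, the sodium channel of fast-spiking interneurons, was at 500.1, 585 and 986 against 216, 122 and 143 (2.08), and the calcium channel subunit gene Cacnb4 changed by 2.27.

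Tau is a microtubule-binding protein that is phosphorylated by kinases such as GSK-3β and Cdk5, and these genes were of interest to the study. Of 30 genes of tau and its kinases and phosphatases 5 rose (16.7%, beside 21.7% of all genes) and 8 fell (26.7%, beside 31.6%), with a median of -0.15, and 5 fell without 12 m 2, and 2 without Ctrl 1 and 2. Mapt, which encodes tau, was at 653, 548 and 675 against 914, 746 and 852 (-0.42, adjusted p = 0.0141). It did not pass without 12 m 2 (0.0749) or Ctrl 1 (0.0545), 1 of its 4 probe sets passed, and against Ctrl28 it was at -0.06 (0.776). Gsk3b was at 682, 716 and 791 at 12 m, 556, 357 and 405 on Ctrl and 348, 399 and 388 on Ctrl28, above both controls on every array (0.75, adjusted p = 0.000382, and 0.95, 0.000697). Cdk5 was at 326, 339 and 429 against 621, 744 and 663 on Ctrl (-0.90) and 268, 324 and 326 on Ctrl28 (0.25, adjusted p = 0.228). Ttbk2, the tau tubulin kinase 2, rose by 1.47 against Ctrl and 0.80 against Ctrl28. The phosphatase gene Ppp3ca, of calcineurin, rose by 1.001, and Ppp2r1a, the scaffold of protein phosphatase 2A, did not pass (-0.38, adjusted p = 0.0761, and 0.000779 without Ctrl28 1). These are transcript levels and say nothing of phosphorylation.

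Of 15 genes of the amyloid precursor and its secretases 2 rose and 7 fell. Adam10, the α-secretase, was at 604, 645 and 579 against 308, 273 and 275 (1.09 ± 0.11, adjusted p = 6.70e-06), and Psen2, a catalytic subunit of γ-secretase, was at 87.8, 77.6 and 118 against 162, 199 and 164 (-0.91). Neither passed against Ctrl28, where the differences were 0.23 (adjusted p = 0.154) and 0.18 (0.502). Glud1, which breaks down glutamate, was at 1013, 1003 and 875 against 930.1, 906 and 1057 with overlap (0.00, adjusted p = 0.996). Of 29 genes of mTOR and insulin signalling 9 rose (31%) and 11 fell (37.9%), beside 21.7% and 31.6% of all genes. The falls were 7 without Ctrl 2 and 6 with the choroid plexus covariate. Against Ctrl28 8 rose and 1 fell, and 5 rose without 12 m 3 and 1 with that covariate. Of 29 tubulin and neuronal cytoskeleton genes 6 rose and 12 fell, and 8 rose and 7 fell after quantile normalization.

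Of 25 microglial genes 4 rose (16%, and 2 genes without Ctrl 2) and 9 fell (36%), beside 21.7% and 31.6% of all genes, with a median of -0.43, and against Ctrl28 0 rose and 0 fell (limma, median -0.01; 1 and 2 at an unadjusted p). Without Ctrl 1 and 2 0 rose and 3 fell against Ctrl. Their mean log2 signal was 6.71, 6.56 and 6.61 at 12 m and 6.66, 6.76 and 6.85 on Ctrl, which overlapped. Csf1r, the receptor microglia need to survive, was at 1479, 1378 and 1282 against 1864, 2321 and 2287 (-0.64, adjusted p = 0.0101), and Ctss, a lysosomal protease of microglia, did not pass (0.19, adjusted p = 0.263). Of 6 complement genes 4 fell and 0 rose against Ctrl, while 3 rose and 1 fell against Ctrl28. C1qb, a chain of the complement initiator C1q, was at 287, 250.2 and 294 at 12 m, 372, 490.4 and 484 on Ctrl and 134, 170.2 and 164 on Ctrl28. The 12 m arrays lay between the 2 controls without overlap, lower than Ctrl (-0.69, adjusted p = 0.00149) and higher than Ctrl28 (0.83, 0.00233). The other chains had the same order, C1qa with -0.55 and 0.81 and C1qc with -0.74 and 0.54. C1qc did not pass against Ctrl28 without 12 m 2 or 3 or Ctrl28 2 or 3 (adjusted p of 0.0593 to 0.0859). C1qa did not pass against Ctrl without 12 m 2 (adjusted p = 0.0564) or Ctrl 2 (0.0653). Of 24 genes of MHC class I and interferon 2 rose and 8 fell (33.3%, beside 31.6% of all genes), and 4 fell without Ctrl 2, 1 without Ctrl 1 and 2, and 0 with the choroid plexus covariate. Ifitm3, an antiviral membrane protein, fell by 1.24, and B2m, the light chain of MHC class I, overlapped (-0.09, adjusted p = 0.626).

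Of 26 astrocyte genes 3 rose and 13 fell (8 fell without Ctrl 2). In both the fit with the choroid plexus covariate and that without Ctrl 1 and 2, 5 fell. Gfap, the astrocytic intermediate filament, was at 234, 181 and 54.1 at 12 m, 314, 444 and 358 on Ctrl and 428, 254 and 236 on Ctrl28. Its change against Ctrl was -1.48 ± 0.38 (adjusted p = 0.00354) and -0.84 (0.012) without 12 m 3, the lowest array. Aqp4, the water channel of astrocyte endfeet, was at 808, 852 and 537 against 365, 274 and 328 (1.17), in the opposite direction, and Mlc1, another endfoot protein gene, was at 385, 367 and 308 against 605, 740.4 and 664 (-0.93). Neither passed against Ctrl28 (0.46, adjusted p = 0.11, and 0.01, 0.971), but Aqp4 did without 12 m 3 (0.67, adjusted p = 0.0356). Of 25 oligodendrocyte and myelin genes 4 rose and 12 fell. Mbp, the myelin basic protein, overlapped between 9352 and 11140 at 12 m and 9184 and 11300 on Ctrl (-0.02, adjusted p = 0.86). Mog, a surface protein of myelin, fell by 0.90, with 0.06 against Ctrl28 (adjusted p = 0.797), and Ermn, a cytoskeletal protein of myelin, was at 479, 447 and 429 against 132, 113 and 112 (1.93) and rose by 1.32 against Ctrl28. Of 24 genes of endothelium and pericytes 2 rose (8.33%) and 9 fell (37.5%), beside 21.7% and 31.6% of all genes. Against Ctrl28 0 rose and 0 fell by limma, and 2 and 3 did at an unadjusted p. With the choroid plexus covariate, and also without Ctrl 1 and 2, 2 rose and 2 fell.

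Newborn neurons of the dentate gyrus express Dcx, a microtubule protein that is lost as they mature. Dcx was at 57.9, 67.9 and 89.9 at 12 m, 28.7, 23.9 and 15.7 on Ctrl and 29.9, 42.7 and 40.4 on Ctrl28, higher at 12 m than on both controls on every array. The changes were 1.68 ± 0.26 (adjusted p = 0.000108) and 0.93 (0.0244, and 0.103 without 12 m 3, 0.0543 without 12 m 2 and 0.0708 without Ctrl28 1). Of 27 genes of immature neurons and neurogenesis 7 rose (25.9%) and 8 fell (29.6%), close to the 21.7% and 31.6% of all genes, with a median of -0.31. The falls were 5 without 12 m 3. In the opposite direction to Dcx, Eomes fell by 1.81 (adjusted p = 0.0161 in limma with each probe set tested singly). Its mean signal, 20.3, was near the minimum. Elavl2, a neuronal RNA-binding protein, was at 1026, 1079 and 1037 against 337, 314 and 346 (1.66 ± 0.15, adjusted p = 3.51e-06). Of 15 dentate granule cell markers 3 rose and 3 fell (1 rose without 12 m 1, 1 fell without Ctrl 1), and C1ql2, a secreted protein of mossy fibres, was at 228, 212 and 14.7 against 379, 419 and 333 (-2.07, and -0.77 with adjusted p = 0.00599 without 12 m 3). Of 10 CA1 markers 4 fell (2 without Ctrl 2), and of 16 CA3 and CA2 markers 2 rose and 8 fell (3 and 6 without 12 m 3). Of 17 neocortical markers 4 rose and 0 fell with 12 m 3, and 5 rose and 2 fell without it. Mef2c, a factor strong in cortex and dentate gyrus, was at 876, 897 and 3045 against 775, 322 and 478 (1.44, and 0.85 with adjusted p = 0.0141 without 12 m 3). Of 24 genes of interneurons and neuropeptides 3 rose and 6 fell (3 fell without Ctrl 2, and 1 without Ctrl 1 and 2).

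Genes of the clock and of stress signals are given beside the 21.7% of all genes that rose and the 31.6% that fell. Of 20 clock genes 6 rose (30%) and 4 fell (20%), and 5 and 6 after median centring. Dbp, an output of the clock, was at 734, 634 and 980.3 at 12 m and 1566, 2011 and 1579 on Ctrl (-1.15 ± 0.23, adjusted p = 0.000569), and fell by 0.81 against Ctrl28 (0.0213, and 0.0557 to 0.0886 without 12 m 1, 12 m 2 or Ctrl28 1). Nr1d2, a repressor of the clock, was at 1172, 1113 and 1268 against 541, 406 and 373 (1.45), but at 0.15 against Ctrl28 (adjusted p = 0.721), and Rora, which opposes it, rose by 2.16 and 1.48 (against Ctrl28 the adjusted p was 0.0176, and 0.0873 without 12 m 3 and 0.0555 without Ctrl28 1). Of 20 glucocorticoid targets 2 rose (10%) and 5 fell (25%), and 3 fell without Ctrl 2 and 0 with the choroid plexus covariate. The receptor gene Nr3c1 was at 362, 364 and 467 against 166, 132 and 146 (1.42). It rose by 0.65 against Ctrl28 (adjusted p = 0.0369, and 0.0514 to 0.134 without 12 m 1, 2 or 3 or Ctrl28 1). Of 15 hypoxia targets 5 rose and 5 fell (33.3% each way), and 2 fell without Ctrl 3 and 3 rose without 12 m 1. Hif1a, the oxygen-regulated factor itself, was at 755, 764 and 733 against 432, 302 and 287 (1.17) and did not pass against Ctrl28 (0.20, adjusted p = 0.44). Of 25 genes of cell cycle and mitosis 7 rose and 7 fell (28% each way). Of 19 genes of cholesterol synthesis 3 rose (15.8%) and 4 fell (21.1%), and 2 fell without 12 m 2.

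Different probe sets of a gene did not always move together. Of 5129 genes with more than 1 probe set tested, all probe sets passed in the same direction in 1298, some passed and none opposed in 2250, none passed in 1454, and probe sets passed in both directions in 127. Camk2a, the kinase of synaptic plasticity, did not pass by the probe set used (-0.31, adjusted p = 0.0727) while another rose by 1.18. Slc1a2, the glutamate transporter of astrocytes, rose by 0.82 on 1 probe set and fell by 0.82 on another. Neat1 changed by 1.26, Vapb by -0.55 and Aqp4 by 0.75 when all their probe sets were averaged, in place of 2.45, -1.25 and 1.17.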

How the data were processed

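The authors hybridised hippocampal RNA to Affymetrix Mouse 430 2.0 arrays and computed signals with the MAS5 method (versions not given in the sources used here). The deposited values are log2 signals, scaled so that the 2% trimmed mean of the unlogged signals was 100.03 to 100.04 on every array. Groups were taken from the sample labels. Of 45101 probe sets, 64 controls, 932 naming several genes and 9160 naming none were left out of the gene table. Gene names came from the platform annotation. A gene was read by its brightest probe set on average over all arrays, if that average was above 20, the minimum of the study's methods.

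All 18 arrays were fitted with 1 mean per group in limma 3.58.1 (R 4.3.3, lmFit and eBayes with a variance trend, 12 residual degrees of freedom), and p-values were adjusted over all 11656 genes by Benjamini-Hochberg with a threshold of 0.05. A gene called rose or fell passed this. Gene lists were counted, not tested. Changes are log2 differences of groups of 3 arrays, with SE. The number of arrays limits precision, as does a signal near background for dim probe sets, and an exact permutation test of 3 against 3 cannot go below 0.1. The fit was tested on simulated data.

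The arrays, lists and named genes were chosen with earlier results of these data known. Named were the 10 largest rises and falls, and the 8 largest each way among genes apart from all other groups, both reaching 100 or more in mean signal where higher and without overlap with Ctrl, members of each list with small p or a defining role, and 30 genes of the study's themes, of which those with a usable probe set are given. Camk2a and Slc1a2 were added after their values were seen, and so was Foxj1. The main fit did not pair arrays by replicate number. Deviations of 12 m and Ctrl arrays with the same number correlated at -0.08, -0.036 and 0.021. These correlations were not computed for the other groups. Number 3 had the lowest choroid plexus mean in Ctrl (5.19), IH5D (5.08), IH5DR2 (5.85), IH28D (5.16) and Ctrl28 (7.48). Whether arrays with the same number shared a step of the work was not tested. Promoter sequences are from RefSeq (GRCm38.p6), matched by gene identifier, or by symbol where that failed, to 9472 of the genes tested. Where a gene had several promoters, the first by coordinates that held the marked letters was printed.

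Alternatives were other minima, probe set choices, scalings and covariates, array weights, the methods' t-test, a replicate block, Ctrl28 as the control and arrays left out. Leaving out Ctrl 1 and 2 together, the 18 arrays in turn and 12 m 3 or Ctrl28 1 in the comparisons with other groups were chosen after seeing the data.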

Additional observations from a re-analysis of the deposited data

Results flagged for a closer look

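Signals outside the gene table differed between 12 m and Ctrl as well. Of 2486 probe sets with no gene name in the annotation, 1285 rose (51.7%) and 248 fell (9.98%), and of 527 probe sets that name several genes, 78 rose (14.8%) and 172 fell (32.6%), beside 26.5% and 24.1% of all probe sets. They were singled out because the comparisons above do not use them.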

How the results depend on the processing

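The count of genes against Ctrl (6208, of which 2524 rose and 3684 fell) was 4629 to 7051 with 1 array left out in turn (2062 to 2749 rose, 2567 to 4302 fell), and lay within 1.5 times of it under the other minima, scalings, weights and gene models tried, except for the following. The methods' t-test at its own threshold passed 5244 genes on unlogged and 5270 on log2 signals, and after Benjamini-Hochberg 1517 (854 rose, 663 fell) and 1666 (745 and 921). With the choroid plexus level as a covariate 3794 passed (1953 fell), with Ctrl replicates 1 and 2 both left out 3477 (1609 fell), with Ctrl28 in place of Ctrl 1904 (937 rose, 967 fell), and with every probe set tested on its own 11603 (6066 rose, 5537 fell). The genes apart from every other group (30, with 15 each way) numbered 246 (140 higher, 106 lower) without Ctrl28 1, 13 (9 and 4) without the variance trend, 20 (8 higher) without a minimum signal, 393 (233 and 160) with array weights, 69 (36 and 33) after quantile normalization, 45 (30 lower) after median centring, and 0 (0 and 0) without 12 m 3, where 529 genes did at an unadjusted p in the same limma fit. The count against Ctrl28 was 1145 (509 fell) without 12 m 3 and 2018 (916 fell) without Ctrl28 1. The causes were not tested.

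With the replicate block 6105 genes passed over all arrays and 5834 over the 6 arrays compared, and of the 3 pairs of arrays 1 correlated best within its own number.

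Among named genes that passed in either comparison, changes took the other sign in 14 cases with Ctrl28 in place of Ctrl. They were at 0.82 for C1qa, 0.83 for C1qb, 0.54 for C1qc, 0.25 for Cdk5, 0.13 for Dlg4 and 0.12 for Gstm1. The rest were at 0.082 for Hdac5, 0.009 for Mlc1, 0.058 for Mog, 0.12 for Pick1, 0.89 for Pkm, 0.18 for Psen2, 0.58 for Slc17a7 and 0.36 for Syp. Named genes that passed in neither comparison were left out of this count, whatever their sign. With the choroid plexus covariate, counted in the same way, the sign changed for Folr1 (0.26), Sostdc1 (0.30) and Steap1 (0.62). That covariate is the mean of the listed choroid plexus genes, so for members of the list this fit removes their shared change by construction and cannot test it. Among the other alternatives, 2683 values of named genes kept their side of the threshold, 203 fell short of it and 33 newly passed it. Those of the 2683 that passed kept their direction, and for those that did not pass the direction was not compared. With few arrays, a signal near background limits what could be detected: 13.6% rose and 13.4% fell in the dimmest of 5 equal groups of genes.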
